A study of Mus musculus with 13 samples.

Results

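H3K27ac peaks were examined at Cdh1, the E-cadherin gene, and at the neighbouring Cdh3, the P-cadherin gene, in 9 mouse melanoma cell lines. H3K27ac, acetylation of lysine 27 of histone H3, marks active promoters and enhancers. The members were the peaks that overlapped either gene body or the 10 kb on each side of it, which were 26 of the 256200 peaks in the 9 lists. They merged into 6 of 59668 regions, of which 5 were at Cdh1 and 1 was at Cdh3. Each list came from 1 cell line, and each line was 1 replicate.

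The lines came from melanomas of mice on a C57BL/6J background that carried the Tyr::NRAS transgene with the Q61K change and were heterozygous for Cdkn2a (allele Cdkn2atm1Rdp). All mice were Cdh1 F/F, that is, both copies of Cdh1 were flanked by loxP sites (allele Cdh1tm2Kem). The ΔEcad mice also carried Tyr::Cre, a recombinase driven by the tyrosinase promoter and so active in the melanocyte lineage. The Ecad mice lacked Tyr::Cre. The 4 Ecad lines were Ma_1007 and Ma_1181 from males and Ma_1014 and Ma_1039 from females. The 5 ΔEcad lines were Ma_1062 and Ma_1456 from males and Ma_1057, Ma_1064 and Ma_1069 from females. Ages were not given in the labels.

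E-cadherin and P-cadherin are classical cadherins, which hold neighbouring cells together through their extracellular domains. Inside the cell they bind p120-catenin (Ctnnd1) and either β-catenin (Ctnnb1) or plakoglobin (Jup), and α-catenin (Ctnna1) and vinculin (Vcl) link the complex to actin. E-cadherin joins normal melanocytes to the keratinocytes of the epidermis, and Snai and Zeb factors can repress its gene through E-boxes.

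In GRCm38 (mm10), Cdh1 lies on the plus strand at chr8:106603351-106670246 and has 16 exons. Cdh3 lies before it on the same strand at chr8:106510891-106557297, with a gap of 46053 bp between them. Intron 2 of Cdh1 spans 44593 bp, which is 66.7% of the gene. On recombination the floxed allele is known to lose exons 6 to 10, a stretch of 4217 bp at chr8:106656824-106661040. That extent is general knowledge of the allele, and the labels do not give it.

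All peaks inside the Cdh1 body fell in intron 2 in all 9 lists. No list had a peak in the 10 kb before the gene, from exon 3 to intron 5, in exons 6 to 10, or from exon 10 to the end of the gene. Since the Ecad and ΔEcad lists were alike empty over exons 6 to 10 (difference 0 kb, exact permutation p = 1), the lists could not check the deletion. No list had a promoter peak, that is, a peak within 1 kb of an annotated start of Cdh1. A region without a listed peak may still carry the mark below the threshold of the lists.

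**Figure D1:**
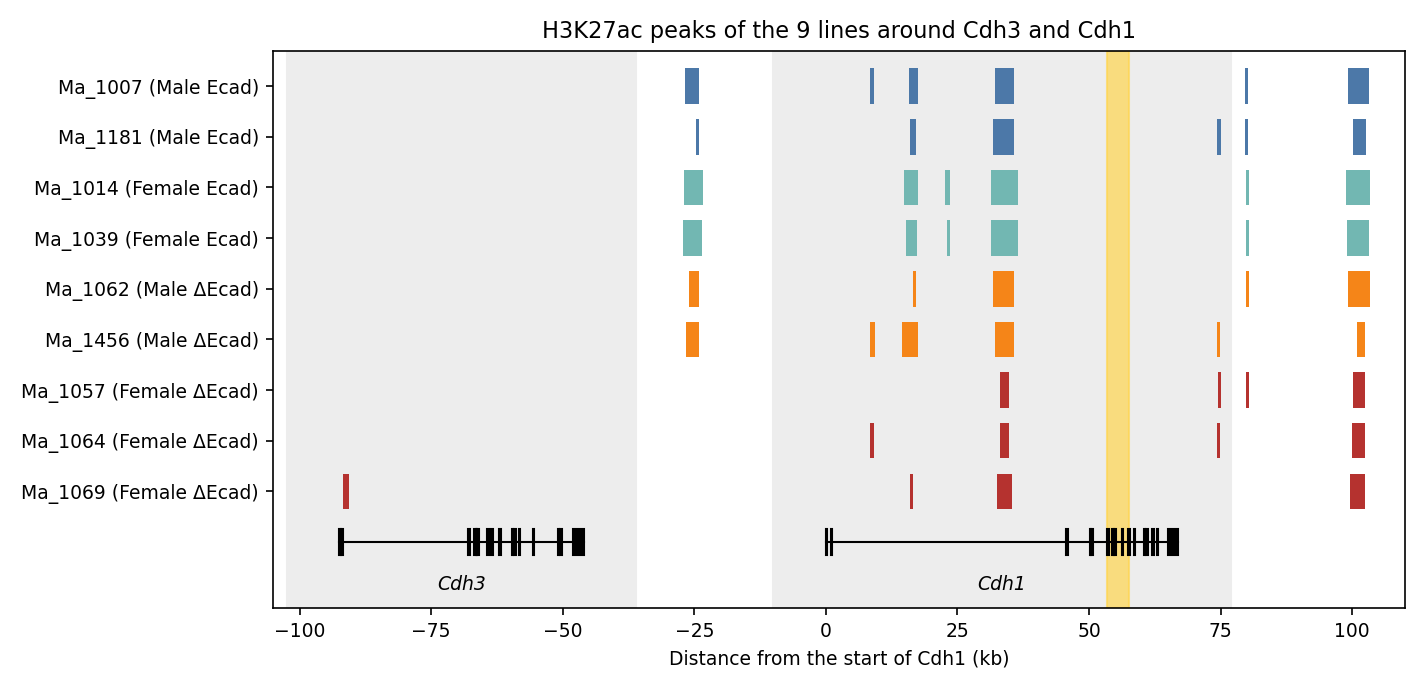
Peaks of each line around Cdh3 and Cdh1, plotted by distance from the start of Cdh1 in kb, with 1 row per line coloured by sex and genotype. Grey marks the windows of the genes, yellow marks exons 6 to 10 and black boxes are exons (the narrowest peaks and exons are drawn slightly wider so that they can be seen). The 3 female ΔEcad lines had the least length under peaks at Cdh1, and exons 6 to 10 held no peak in any of the 9 lines. Covered length was lower in female ΔEcad for 20.2% of genes at an unadjusted exact permutation p under 0.05.

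The element called in all 9 lists, named element 4, was at chr8:106634648-106639843 in intron 2, and its centre lay 33.9 kb after the start of the gene. The part covered in every list spanned 1623 bp and ended 18.7 kb before exon 6. Its sequence is shown because element 4 was the strongest at Cdh1. The first stretch, chr8:106637526-106637825, is centred on the median summit of the 9 lists, and the second, chr8:106636532-106636831, on the summit of Ma_1062, a male ΔEcad line. The third, chr8:106511547-106511846, is centred on the summit of the single Cdh3 peak, in intron 2 of Cdh3. Each stretch is 300 bases of the plus strand of GRCm38, and capitals mark a match to a motif searched.
Element 4 of Cdh1: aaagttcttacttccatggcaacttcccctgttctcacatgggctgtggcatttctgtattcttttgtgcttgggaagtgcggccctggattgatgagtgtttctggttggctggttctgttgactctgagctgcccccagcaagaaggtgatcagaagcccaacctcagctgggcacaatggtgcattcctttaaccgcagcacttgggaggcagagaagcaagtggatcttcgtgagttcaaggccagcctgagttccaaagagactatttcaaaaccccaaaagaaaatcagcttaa
Element 4 of Cdh1, summit of Ma_1062: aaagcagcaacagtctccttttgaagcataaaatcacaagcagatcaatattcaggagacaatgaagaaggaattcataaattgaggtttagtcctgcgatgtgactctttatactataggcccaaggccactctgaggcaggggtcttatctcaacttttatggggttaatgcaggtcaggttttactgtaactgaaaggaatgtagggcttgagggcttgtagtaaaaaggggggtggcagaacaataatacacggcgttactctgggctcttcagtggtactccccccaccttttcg
Cdh3 peak of Ma_1069: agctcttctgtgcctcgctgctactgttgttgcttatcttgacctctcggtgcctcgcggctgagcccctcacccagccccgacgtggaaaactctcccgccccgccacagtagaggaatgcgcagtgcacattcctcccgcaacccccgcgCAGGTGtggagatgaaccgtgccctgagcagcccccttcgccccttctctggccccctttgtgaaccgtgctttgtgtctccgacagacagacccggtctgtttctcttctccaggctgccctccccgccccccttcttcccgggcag

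Both strands were searched for CAGGTG, an E-box bound by Snai and Zeb factors, CACGTG, an E-box bound by MITF, and TGANTCA, bound by AP-1. No stretch of element 4 held any of the 3 motifs. The Cdh3 stretch held 1 CAGGTG. Over the windows of 300 bases around the best summit of 59644 merged regions, 15.4% held CAGGTG, 3.79% held CACGTG and 9.21% held TGANTCA. A match is a description of letters only. The single match overlapped no other motif.

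Element 4 was narrower in the female ΔEcad lines than in any other line, and so was the median peak of the whole list. That median was 943 bp in Ma_1057, 1019 bp in Ma_1064 and 1014 bp in Ma_1069, against 1059 to 1195 bp in the other lists. The width of element 4 was 3.57 kb in Ma_1007, 4.04 kb in Ma_1181, 5.13 kb in Ma_1014 and 5.06 kb in Ma_1039. In the male ΔEcad lines it was 3.98 kb in Ma_1062 and 3.46 kb in Ma_1456. In the female ΔEcad lines it was 1.66 kb in Ma_1057, 1.67 kb in Ma_1064 and 2.88 kb in Ma_1069. The 3 female ΔEcad widths therefore did not overlap those of the other 6 lines. How many other regions called in all lists separate in this way was not counted. Of the 8187 such regions, 28.9% had less length under peaks in female ΔEcad lines (unadjusted exact permutation p under 0.05).

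The fold enrichment, which the lists give as a ratio to the background around the peak, was 34.6 in Ma_1007, 42.0 in Ma_1181, 30.3 in Ma_1014 and 26.3 in Ma_1039. It was 43.7 in Ma_1062, 28.3 in Ma_1456, 12.3 in Ma_1057, 12.5 in Ma_1064 and 26.4 in Ma_1069. Ma_1057 and Ma_1064 were lowest, whereas Ma_1069 stood beside the lowest Ecad line. Input chromatin was sequenced for Ma_1181, Ma_1014, Ma_1062 and Ma_1069, so Ma_1069 was the only female ΔEcad line with an input of its own. Which input served as the control of each list is not given in the sources used here, and its part in the fold and −log10 q values was not tested.

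The percentile of a peak is the share of its own list with a −log10 q at or below it. For element 4 it was 94.7 in Ma_1007, 90.9 in Ma_1181, 96.1 in Ma_1014 and 96.8 in Ma_1039. It was 98.0 in Ma_1062, 95.9 in Ma_1456, 67.2 in Ma_1057, 69.5 in Ma_1064 and 95.0 in Ma_1069. Thus element 4 was among the stronger peaks of 7 lists and ranked lower in Ma_1057 and Ma_1064. Its mean percentile of 89.4 was at or above that of 82.2% of the 8187 regions called in all 9 lists.

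**Figure D2:**
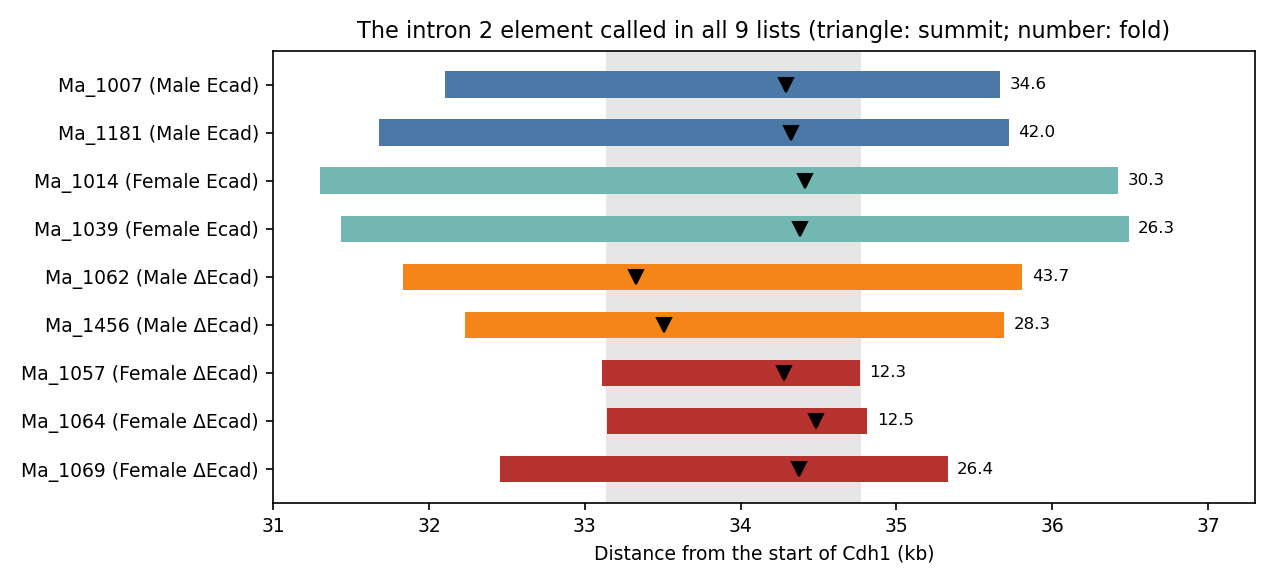
Extent of element 4 in each line by distance from the start of Cdh1 in kb, with the summit as a triangle and the fold enrichment as a number, and the part shared by all 9 lists in grey. The shared 1623 bp are set by the narrowest peaks, from the start of that of Ma_1064 to the end of that of Ma_1057. Both male ΔEcad summits lay before the other 7.

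The summit also differed in place. Both male ΔEcad summits lay at 33.3 and 33.5 kb from the start of the gene, and the other 7 lay within 208 bp of each other, from 34.3 to 34.5 kb. The gap between those sets was 770 bp, within the part shared by all lists. This split was seen in the data and not tested.

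Compared over lines, the length of element 4 under peaks was 2.73 ± 1.05 kb (SD, n = 5) in ΔEcad and 4.45 ± 0.768 kb (SD, n = 4) in Ecad, a difference of -1.72 kb (exact permutation test, two-sided, p = 0.0317, adjusted p = 0.269 over the 8187 common regions). Of those regions, 15.5% were lower in ΔEcad at an unadjusted p under 0.05, and their median difference was -0.38 kb. The female ΔEcad mean of 2.07 ± 0.699 kb (SD, n = 3) stood against 4.21 ± 0.723 kb (SD, n = 6) in the other lines, a difference of -2.14 kb (exact permutation p = 0.0119, adjusted p = 0.0821). That p is the smallest this design allows, and 28.9% of the common regions were lower in the same comparison, with a median difference of -0.51 kb. The tests of element 4 were added after the data were seen. The direction for female ΔEcad at Cdh1 was already known from an earlier account of these data. As a percent of the whole length each list covers, the female ΔEcad difference did not pass (exact permutation p = 0.167), nor did that by genotype (exact permutation p = 0.302). The female ΔEcad lists covered 29.5 to 39.5 Mb in all and the other lists 37.1 to 67.2 Mb. Lists cut to an equal number of peaks left the element 4 lengths the same, because its peaks were kept whole. The part of list length in the result was not tested further.

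Without Ma_1181, Ma_1014, Ma_1039, Ma_1456, Ma_1057, Ma_1064 or Ma_1069, each left out in turn, the genotype difference in length no longer passed (exact permutation p from 0.0571 to 0.0893), while the female ΔEcad difference passed without any 1 line.

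The percentile of element 4 was 85.1 ± 15.4 (SD, n = 5) in ΔEcad and 94.6 ± 2.67 (SD, n = 4) in Ecad, which did not pass the test (exact permutation p = 0.397, against 11.9% of common regions lower). In female ΔEcad it was 77.3 ± 15.4 (SD, n = 3) against 95.4 ± 2.48 (SD, n = 6) in the other lines (exact permutation p = 0.0357, adjusted p = 0.188, against 20.3% of common regions lower). Without Ma_1057 that p was 0.107, with a difference of -13.2, and without Ma_1064 it was also 0.107, with a difference of -14.3. Without Ma_1014, Ma_1039, Ma_1062 or Ma_1456 it was 0.0536, again by the exact permutation test. No common region had an adjusted p under 0.05 in any of these 4 comparisons.

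Over the whole Cdh1 window, 5.88 kb was under peaks in Ma_1007, 5.78 kb in Ma_1181, 8.79 kb in Ma_1014 and 7.66 kb in Ma_1039. The male ΔEcad lines had 4.45 kb in Ma_1062 and 7.85 kb in Ma_1456. The female ΔEcad lines had 1.92 kb in Ma_1057, 2.92 kb in Ma_1064 and 3.16 kb in Ma_1069, below each of the other 6. How many other genes separate in this way was not counted, but 20.2% of genes were lower in female ΔEcad at an unadjusted exact permutation p under 0.05. ΔEcad and Ecad lines overlapped through Ma_1456.

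Covered length at Cdh1 was 4.06 ± 2.30 kb (SD, n = 5) in ΔEcad and 7.02 ± 1.46 kb (SD, n = 4) in Ecad, a difference of -2.96 kb that did not pass the exact permutation test (two-sided, p = 0.0635, adjusted p = 0.360 over 28502 genes). Without Ma_1456 it was -3.91 kb (exact permutation p = 0.0286). Of all genes with a peak, 14.7% were lower in ΔEcad at an unadjusted p under 0.05, and the median gene differed by -0.36 kb. Female ΔEcad lines covered 2.67 ± 0.659 kb (SD, n = 3) against 6.73 ± 1.62 kb (SD, n = 6) in the others, a difference of -4.07 kb (exact permutation p = 0.0238, adjusted p = 0.152). The direction of this comparison had been seen in an earlier account of these data. In that comparison 20.2% of genes were lower at an unadjusted p under 0.05, with a median difference of -0.48 kb. No gene had an adjusted p under 0.05. The highest percentile in the window was that of element 4 in every line, and its genotype comparison stood against 12.4% of genes lower.

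Within females, the ΔEcad lines covered 2.67 ± 0.659 kb (SD, n = 3) against 8.22 ± 0.798 kb (SD, n = 2) in the Ecad lines, a difference of -5.55 kb, and the exact permutation p = 0.1 was the smallest that 3 against 2 lines allow. Within males, the values were 6.15 ± 2.41 kb (SD, n = 2) and 5.83 ± 0.0679 kb (SD, n = 2), a difference of 0.32 kb (exact permutation p = 1, smallest possible 0.333). The male difference became -1.38 kb without Ma_1456 and 2.03 kb without Ma_1062. The effect of genotype in females minus that in males was -5.87 kb (exact permutation of genotype within sex, p = 0.05, 60 permutations), which is not under the threshold of 0.05. Without Ma_1062 it was -7.58 kb (exact permutation p = 0.0333).

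**Figure D3:**
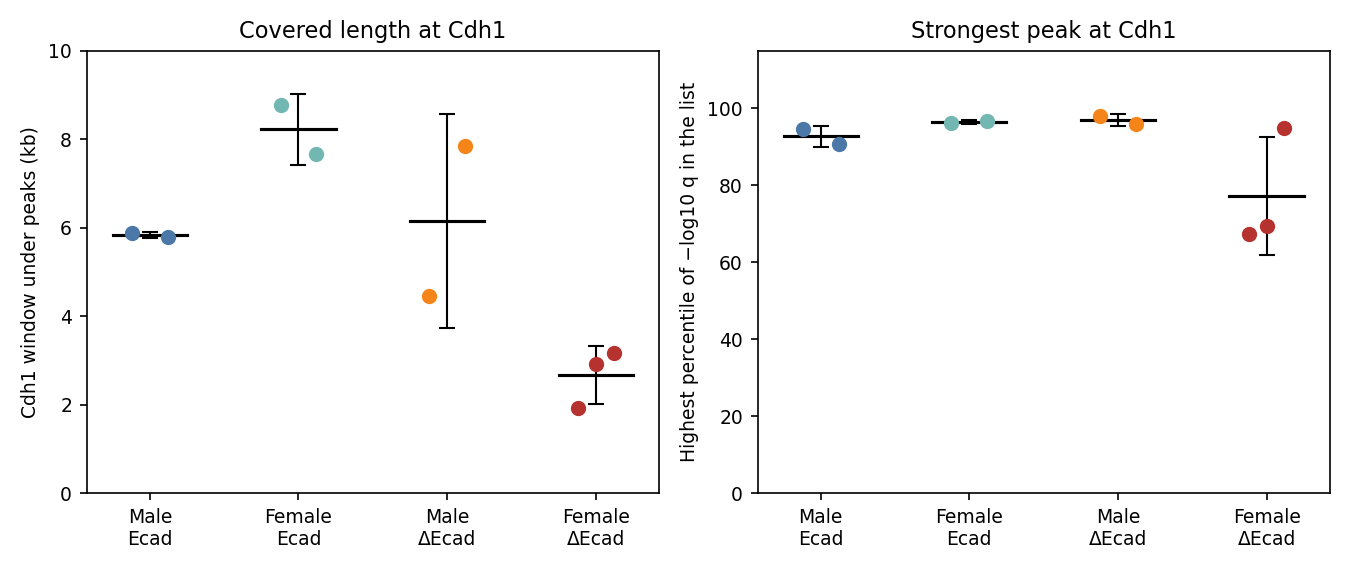
Length of the Cdh1 window under peaks in kb (left) and highest percentile of −log10 q in the list (right), with a point per line and the group mean and SD as bars. The 3 female ΔEcad lines covered 1.92 to 3.16 kb and the other 6 lines 4.45 to 8.79 kb. In that comparison 20.2% of genes were lower in female ΔEcad at an unadjusted exact permutation p under 0.05.

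The second element by the number of lists, element 2 at chr8:106617776-106620899, lay in intron 2 with its centre 16.0 kb after the start. It was called in all 4 Ecad lists, both male ΔEcad lists and Ma_1069, and was not called in Ma_1057 or Ma_1064 (Fisher's exact test Ecad against ΔEcad, p = 0.444). Its fold enrichment was 17.3 in Ma_1007, 6.59 in Ma_1181, 24.5 in Ma_1014, 14.5 in Ma_1039, 3.88 in Ma_1062, 8.22 in Ma_1456 and 3.81 in Ma_1069. The folds of the Ecad and ΔEcad lines overlapped, since Ma_1181 was below Ma_1456, and they were not tested. Its width ranged from 0.287 kb in Ma_1069 to 3.12 kb in Ma_1456, and its percentile from 7.91 in Ma_1069 to 90.7 in Ma_1014. The peak of Ma_1069 had its summit 16.1 kb after the start, and the other 6 summits were at 16.7 kb.

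The other 3 elements at Cdh1 were weaker and less often called. Element 1, at chr8:106611736-106612596 in intron 2, was called in Ma_1007, Ma_1456 and Ma_1064, with folds of 3.55, 6.60 and 9.01. Element 3, at chr8:106625915-106626896 in intron 2, was called in the 2 female Ecad lines alone, with folds of 4.34 in Ma_1014 and 3.70 in Ma_1039 (Fisher's exact test, p = 0.167). That pattern of lists was shared by 841 merged regions, 1.41% of all. Element 5, at chr8:106677664-106678381, lay 7.42 kb after the end of Cdh1 and was called in Ma_1181, Ma_1456, Ma_1057 and Ma_1064, with folds from 3.76 to 7.13. Percentiles of these 3 elements ran from 4.06 to 50.1. None of the 6 elements passed Fisher's exact test, at an unadjusted p under 0.05 or after adjustment over all regions (each adjusted p = 1). Over all merged regions, 3.66% passed at an unadjusted p under 0.05 and 0 after adjustment. Elements 2, 3 and 4 and the Cdh3 element could not have passed. With 4 Ecad against 5 ΔEcad lists, a region called in 1, 2, 7 or 9 lists cannot reach p under 0.05. The 3.66% is a share of all merged regions, including those that could not pass.

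Cdh3, which was not targeted, had a peak in Ma_1069 alone, a pattern of lists shared by 1776 merged regions, 2.98% of all. This peak, at chr8:106511524-106512663 in intron 2, was 1.14 kb wide and its summit lay 806 bp after the start of the gene, so it also counted as a promoter peak. Its fold enrichment was 2.87 and its percentile 8.61, near the bottom of its list. The remaining 8 lists had no peak in the Cdh3 window, so the covered length was 0.228 ± 0.510 kb (SD, n = 5) in ΔEcad and 0 kb in all 4 Ecad lines (exact permutation p = 1).

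Outside the windows, the regions below were picked after their values were seen. A region between the genes, at chr8:106576213-106579927, lay 18.9 kb after Cdh3 and 23.4 kb before Cdh1 and was called in 6 of 6 other lists and 0 of 3 female ΔEcad lists, a pattern given without a test because the region was picked for it. Its fold was 6.31 in Ma_1007, 5.11 in Ma_1181, 25.1 in Ma_1014, 23.5 in Ma_1039, 6.89 in Ma_1062 and 6.54 in Ma_1456, so the female Ecad lines were highest. That pattern of lists was shared by 802 merged regions, 1.34% of all. A region inside Tango6, 32.0 kb after Cdh1 at chr8:106702225-106706826, was called in all 9 lists. Its percentile was 92.0 to 97.3 in female ΔEcad lines and 75.8 to 98.3 in the other 6, and its fold was 25.6 to 34.1 and 21.5 to 49.9. Its width was 2.46 ± 0.352 kb (SD, n = 3) in female ΔEcad lines and 3.50 ± 1.17 kb (SD, n = 6) in the others. The start of Tango6, 12.8 kb after Cdh1, was called in all 4 Ecad lists, with folds of 10.2 to 16.2. Of the 5 ΔEcad lists, Ma_1062 and Ma_1057 had a peak there, with folds of 3.55 and 4.03. These widths and folds were not tested.

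**Figure D4:**
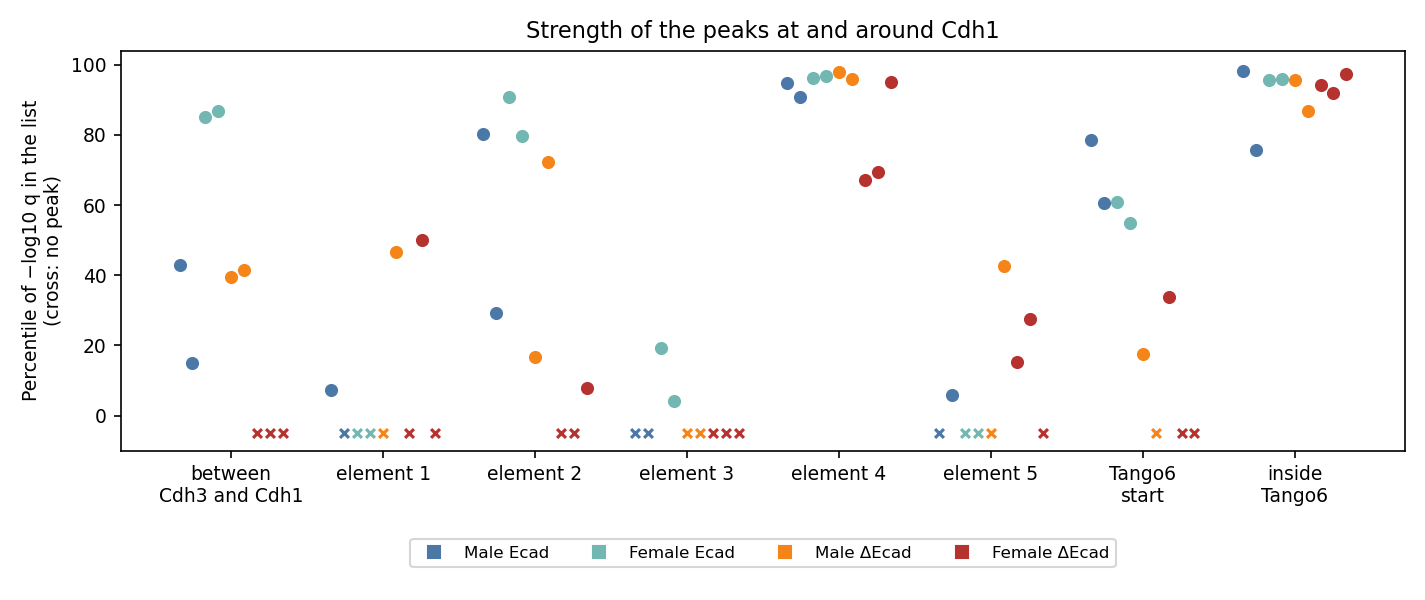
Percentile of −log10 q within its list for each element of Cdh1, for the region between the genes and for 2 regions at Tango6, with a point per line and a cross where the list had no peak. Ma_1057 and Ma_1064 were at 67.2 and 69.5 for element 4, but at 94.1 and 92.0 for the region inside Tango6. At the start of Tango6, Ma_1057 was at 33.7 and Ma_1064 had no peak.

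Of the 3 nearest protein-coding genes on each side, Chtf8 had a promoter peak in all 9 lists. Tango6 had one in 6 lists, which were all 4 Ecad lists, Ma_1062 and Ma_1057, and Zfp90 in 5, which were all 4 Ecad lists and Ma_1456. Smpd3, 6030452D12Rik and Has3 had none.

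Among 6 genes of the cadherin-catenin complex, Ctnnb1, Ctnna1 and Ctnnd1 had a promoter peak in all 9 lists, Afdn (afadin, an actin-binding junction protein) in 8, Vcl in 6 and Jup in 5. In covered length, 2 of the 6 were lower in ΔEcad at an unadjusted exact permutation p under 0.05, Ctnna1 (-5.81 kb) and Afdn (-1.57 kb), beside 14.7% of all genes, none was higher and none passed after adjustment. The median difference of the list was -2.13 kb, beside -0.36 kb over all genes. Among 5 known repressors of Cdh1, Zeb2 had a promoter peak in 9 lists, Snai2 in 6, Zeb1 in 3, Twist1 in 1 and Snai1 in none. Of these, 1 was lower at an unadjusted p under 0.05, Zeb1 (-5.51 kb), beside 14.7% of all genes, none was higher and none passed after adjustment, with a list median of -0.73 kb.

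The labelled cell type, melanoma, was checked against marker genes. All 6 melanocyte markers, Sox10, Mitf, Dct, Tyr, Pmel and Mlana, had a promoter peak in all 9 lists. None of 5 epithelial markers, Krt5, Krt14, Krt8, Krt18 and Epcam, had a peak in its window in any list. Of 3 fibroblast markers, Pdgfra had a promoter peak in 1 list and Col1a1 and Col3a1 in none, but Pdgfra and Col1a1 had a peak in the window in all 9 lists. The 3 blood cell markers and 2 endothelial markers had no promoter peak in any list. In the window, Ptprc had a peak in 2 lists, Itgam in 1 and Cd3e in none, and Pecam1 had one in 8 lists and Kdr in none. In covered length, 3 of 6 melanocyte markers (Sox10, Dct and Pmel), 2 of 2 fibroblast markers tested (Col1a1 and Pdgfra) and 1 of 1 endothelial marker tested (Pecam1) were lower in ΔEcad at an unadjusted exact permutation p under 0.05, beside 14.7% of all genes. Neither of the 2 blood cell markers tested was lower, and no marker passed after adjustment. Their part in the Cdh1 values was not tested.

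Among the genes whose covered length, as a percent of the list, followed that of Cdh1 most closely over the 9 lines were Myadm (Pearson r = 0.958), Tnks1bp1 (r = 0.952), and 9130023H24Rik and Armc5 (r = 0.945 each), out of 7532 protein-coding genes with a peak in all 9 lists. 9130023H24Rik and Armc5 gave the same values because their windows share peaks. The points share list length and sex by genotype group, and these r values are a description.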

How the data were processed

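H3K27ac ChIP–seq was done by the authors on 9 mouse melanoma cell lines and 4 input libraries are not analysed here. Reads were aligned with Bowtie2 to GRCm38 (mm10) on the European Galaxy server. The submitters' processing notes name Bowtie2 2.4.5, MACS2 2.2.7.1 and deepTools 3.5.1.0.0, without saying which step each served. Per the deposited peak lists, each row gives a position, a score, a fold enrichment as a ratio over local background, −log10 p and −log10 q values, and the offset of the summit. The score, −log10 p and offset were used only to read the file, and the offset to place the summit. The lowest −log10 q was above 5 in each list. The lists carry no counts of reads. The study's methods aimed at the same number of reads for every library. The depth each one reached is unknown, and intervals for counting error were not computed.

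Peaks were placed on GENCODE M21 in GRCm38. Covered length is the number of bp of a gene body and 10 kb on each side under peaks of a list. Overlapping peaks were merged, and 1 bp of overlap with a merged region counted as a call. Group means over lines were compared by two-sided exact permutation (126 splits of 5 against 4 and 84 of 3 against 6), with Benjamini-Hochberg adjustment over 28502 genes or 8187 regions called in all lists, and calls by Fisher's exact test over 59668 merged regions. The exact permutation test of group means was checked on simulated data, and the other tests were not. Python 3.11.15, numpy 2.4.6, pandas 2.3.3, scipy 1.17.1, pysam 0.24.0 and matplotlib 3.10.9 were used. Cdh1 and Cdh3, the gene lists and the tests were chosen with earlier results of these data known. Named besides them were the 3 nearest protein-coding genes on each side, marker and complex lists, and the 5 genes most like Cdh1, of which 1 is not reported here. Separate lines are the replicates, and the labels do not say whether libraries shared a batch. Sequences were read from GRCm38. Alternatives kept the upper 50% of each list, lists of equal length, the gene body alone, length as a percent of the list, the percentile of the fold, an overlap of 50%, and 8 of 9 lines at a time.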

Additional observations from a re-analysis of the deposited data

Results flagged for a closer look

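In 11 group and measure combinations at Cdh1, Cdh3 and element 4, the highest or lowest line was compared with the spread of its group, where chance marks about 1 in 20. One value was marked: Ma_1069 had 1.14 kb under peaks in the Cdh3 window, and the other 4 ΔEcad lines had 0 kb. With those 4 at 0, a peak of any width would have been marked, so the rate of 1 in 20 does not apply to it.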

How the results depend on the processing

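The tests of element 4 and of the differences within each sex, and their alternatives, were chosen after seeing the data. Under the percent of list length, the element 4 differences lost the threshold, at -0.00203 percentage points by genotype and -0.00296 for female ΔEcad. With lists of equal length, 20741 peaks each, the element 4 percentile difference for female ΔEcad was -22.8 and no longer passed. Leaving out 1 line at a time, the covered length at Cdh1 differed by genotype by -3.91 to -2.38 kb, for female ΔEcad by -4.52 to -3.65 kb, and by sex and genotype together by -7.58 to -4.17 kb. The first passed without Ma_1456 (exact permutation p = 0.0286) and the last without Ma_1062 (exact permutation p = 0.0333). The male difference ran from -1.38 to 2.03 kb, and the female one from -6.12 to -4.99 kb. At element 4, the length differed by -2.03 to -1.45 kb by genotype, and lost the threshold in 7 of 9 cases (all but Ma_1007 and Ma_1062), and by -2.54 to -1.93 kb for female ΔEcad. Its percentile differed by -12.7 to -5.02 by genotype and by -27.1 to -13.2 for female ΔEcad, and lost the threshold in 6 of 9 cases (all but Ma_1007, Ma_1181 and Ma_1069). In the upper 50% of each list, with percentiles taken anew in the shorter lists, the element 4 percentile differed by -19.0 by genotype and by -36.3 for female ΔEcad. The Cdh3 differences became 0 without Ma_1069 and in the upper 50% of each list. The remaining results and alternatives kept their direction and side of the threshold, though some of them could not change. The element 4 lengths were the same in the upper 50% and in lists of equal length, where its peaks were kept whole. Within each sex, no split of the lines could bring p under 0.05. Leaving out a line of 1 sex left the difference within the other sex as it was. No paired analysis was possible because each of the 9 lists came from a different line with 1 sex and 1 genotype, and the labels pair no lines.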
